A study of Homo sapiens with 12 samples.

Results

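The oxidative phosphorylation subunits are the protein parts of the respiratory chain and the ATP synthase. Their nuclear genes were taken by symbol, as those with a single platform gene symbol of the NDUFA, NDUFB, NDUFC, NDUFS, NDUFV and NDUFAB families, the SDH genes, the UQCR genes, COX4 to COX8 and the ATP5 genes. Of 82 symbols that matched, 76 were kept, out of 19775 genes tested, and they were read by 150 of 54675 probe sets. Complex I holds 33 of them, complex II 3, complex III 6, complex IV 16 and complex V 18. Left out were 3 antisense or divergent transcripts, 2 pseudogenes and COX7A2L, a factor of respiratory supercomplexes. A further 15 probe sets with several symbols were also left out. Genes without a set of a single symbol were not read. Among them were UQCRH, which a set of the 15 names, and SDHB and UQCRFS1, which none of the 15 names. NDUFA4 and its relatives carry newer COXFA4 symbols on this platform and so fell outside the rule.

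The 12 expression arrays, 4 in each of 3 groups, read RNA of MDA-MB-231, a human cell line long in culture that came from a breast cancer. Sharp1 cells overexpressed Sharp1, a transcriptional repressor whose gene is BHLHE41, with no vector or matched empty vector given in the sources used here. shHIF cells carried a retroviral hairpin construct against HIF1 alpha and HIF2 alpha, and shGFP cells, the control of both comparisons, carried a retroviral hairpin against GFP. All were grown in ordinary medium with serum and left untreated, so no group was placed under hypoxia. The replicates are called biological, but no label says that they came from separate cultures, and p-values therefore cover only the spread from array to array, which may be technical.

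Complex I takes electrons from NADH and complex II from succinate, complex III passes them to cytochrome c, and complex IV gives them to oxygen. The proton gradient built on the way drives complex V, which makes ATP. Hypoxia-inducible factors are known to dampen respiration, through kinases that close the pyruvate dehydrogenase step, through mitophagy genes and through exchange of complex IV isoforms.

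The design addresses whether Sharp1 overexpression and loss of the HIF alpha subunits change the transcriptome alike, and both comparisons share the shGFP arrays. The targeted genes were read first. EPAS1, the gene of HIF2 alpha, lay at 6.40, 6.83, 6.77 and 6.72 on the log2 scale in shHIF cells, against 9.49, 9.55, 9.48 and 9.60 in shGFP cells, and HIF1A at 11.99, 12.10, 12.08 and 12.04 in shHIF cells, against 12.80, 12.80, 12.79 and 12.75 in shGFP cells. The knockdown of HIF1A was thus partial at the transcript level (difference -0.73, SE 0.03). BHLHE41 on the probe set that rose most lay at 9.56, 8.87, 9.30 and 9.22 in Sharp1 cells, against 3.94, 3.95, 3.82 and 3.83 in shGFP cells, while its brightest probe set fell by 2.06. Of the markers of the line, VIM, CD44 and AXL read at least 11.79 on every array and ESR1, PGR and CDH1 at most 6.66, but SPARC read 4.30 or less. Of 4 leukocyte markers, all averaged below the median probe set (5.41) in Sharp1 and shHIF cells and 3 of 4 in shGFP cells. The sum of their log2 values was 18.16 to 18.96 in Sharp1, 18.63 to 19.55 in shHIF and 19.29 to 20.04 in shGFP cells. LYZ averaged 4.55 in Sharp1, 5.09 in shHIF and 5.82 in shGFP cells, and its part in the results was not tested. Of 5 fibroblast markers, 3 averaged below the median probe set in Sharp1 and shGFP cells and 2 in shHIF cells. COL1A1 averaged 7.40 to 7.57 over the groups and PDGFRB 6.06 to 6.38. Fewer cells of a type and less RNA per cell cannot be told apart in such bulk samples.

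Promoter sequences were set beside the members to show which letters known for hypoxia and respiratory gene control they hold. They are RefSeq sequences of GRCh38.p14, and 65 of the 76 genes matched the table. The window searched ran from 250 bases before to 50 bases after each gene's start, on both strands, and the 250 bases before the start are printed on the gene's own strand. NDUFB8 and NDUFB4 are shown because they fell in Sharp1 cells and rose in shHIF cells, NDUFV2 because it rose in both, ATP5ME and COX7B2 as the members with the largest rise in shHIF cells, and SDHA as the one with the largest fall. Capitals mark the hypoxia response cores ACGTG and GCGTG (or their reverse complements CACGT and CACGC), the E-box CACGTG, which contains ACGTG and is a letter pattern bound by bHLH factors, and the 10-letter palindrome bound by nuclear respiratory factor NRF1, the run of capitals in NDUFB4. The windows lie at chr10:100529872-100530121 (minus strand), chr3:120596086-120596335 (plus), chr18:9102449-9102698 (plus), chr4:674277-674526 (minus), chr4:46909246-46909495 (minus) and chr5:218070-218319 (plus).
NDUFB8: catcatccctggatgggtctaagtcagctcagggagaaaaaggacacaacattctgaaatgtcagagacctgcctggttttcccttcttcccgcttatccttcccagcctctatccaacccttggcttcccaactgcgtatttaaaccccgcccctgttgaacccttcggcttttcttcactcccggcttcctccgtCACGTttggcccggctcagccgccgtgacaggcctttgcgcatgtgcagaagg
NDUFB4: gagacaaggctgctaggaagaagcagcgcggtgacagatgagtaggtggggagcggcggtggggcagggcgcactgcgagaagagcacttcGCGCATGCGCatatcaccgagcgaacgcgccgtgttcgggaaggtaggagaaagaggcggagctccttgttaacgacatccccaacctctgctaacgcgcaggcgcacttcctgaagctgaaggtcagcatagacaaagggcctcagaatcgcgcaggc
NDUFV2: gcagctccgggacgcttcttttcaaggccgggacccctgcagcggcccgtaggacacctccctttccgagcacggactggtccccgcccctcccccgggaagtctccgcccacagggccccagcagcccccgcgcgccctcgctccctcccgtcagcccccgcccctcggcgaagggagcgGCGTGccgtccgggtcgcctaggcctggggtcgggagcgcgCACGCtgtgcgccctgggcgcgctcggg
ATP5ME: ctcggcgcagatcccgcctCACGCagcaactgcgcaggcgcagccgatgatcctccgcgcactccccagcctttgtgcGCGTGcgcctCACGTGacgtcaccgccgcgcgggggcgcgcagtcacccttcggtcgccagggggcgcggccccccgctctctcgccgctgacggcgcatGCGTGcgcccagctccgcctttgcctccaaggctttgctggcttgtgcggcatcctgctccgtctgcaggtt
COX7B2: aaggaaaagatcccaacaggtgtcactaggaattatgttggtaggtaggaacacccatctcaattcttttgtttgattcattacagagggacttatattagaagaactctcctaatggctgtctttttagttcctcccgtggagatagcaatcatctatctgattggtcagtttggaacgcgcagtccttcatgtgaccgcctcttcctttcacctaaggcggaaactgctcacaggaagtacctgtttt
SDHA: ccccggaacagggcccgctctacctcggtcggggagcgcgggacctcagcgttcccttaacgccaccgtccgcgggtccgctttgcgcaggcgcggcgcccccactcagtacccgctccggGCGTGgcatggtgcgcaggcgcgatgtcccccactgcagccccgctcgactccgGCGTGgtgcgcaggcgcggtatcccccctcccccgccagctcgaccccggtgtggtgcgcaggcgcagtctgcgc
In the printed bases ATP5ME held both cores and an E-box, NDUFB8 the ACGTG core, NDUFV2 and SDHA the GCGTG core and NDUFB4 an NRF1 site, while none of these letters stood in the COX7B2 window. The longer window searched also held a YY1 site (AAGATGGC) in NDUFB8 and an ETS site (CCGGAAG) in ATP5ME. COX7B and NDUFAB1, likewise lower in Sharp1 and higher in shHIF cells, held none of the letters searched. Either hypoxia core was found in 61.5% of member promoters and in 55.5% of the 15384 promoters of tested genes. Among the 34 matched members called higher in shHIF cells the share was 67.6%, and among the 31 other matched members 54.8%. The E-box was in 10.8% of member promoters and 8.56% of all. Letters of general respiratory gene promoters stood further apart: the YY1 site AAGATGGC was in 16.9% of member promoters and 3.93% of all, the ETS site CCGGAAG in 27.7% and 14.2%, and the NRF1 site in 6.15% (4 promoters) and 1.71%. These shares describe letters, with no test, and a match is no proof of binding.

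Nearly all members gave strong signal. Of the 76 genes, 64 lay in the top 10% of all genes by mean signal, and 68 had a mean log2 signal of at least 10. The brightest member was NDUFA12 (12.79) in complex I, SDHD (11.47) in complex II, UQCRQ (12.74) in complex III, COX7C (13.77) in complex IV and ATP5F1A (13.63) in complex V. Signals of different probe sets do not rank transcript amounts. Of the 8 members under 10, 5 were isoforms of complex IV known from other tissues: COX4I2 (5.32) of lung, COX6A2 (5.10) and COX7A1 (4.77) of heart and muscle, and COX6B2 (5.39) and COX8C (3.02) of testis. The muscle markers MYH7, ACTN2, CKM and DES averaged at most 5.71 in any group. COX7B2, an isoform known mainly from testis, was the exception among the tissue isoforms with a mean of 10.95, whereas the testis markers DDX4, PRM1 and TNP1 averaged at most 5.59 in any group. The other members under 10 were NDUFS7 (9.95), ATP5F1D (9.35) and ATP5MF (5.27), the last on the only probe set that names it alone. Replicates lay close together, with a median SD over members of 0.04 in Sharp1, 0.06 in shHIF and 0.04 in shGFP cells.

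**Figure D1:**
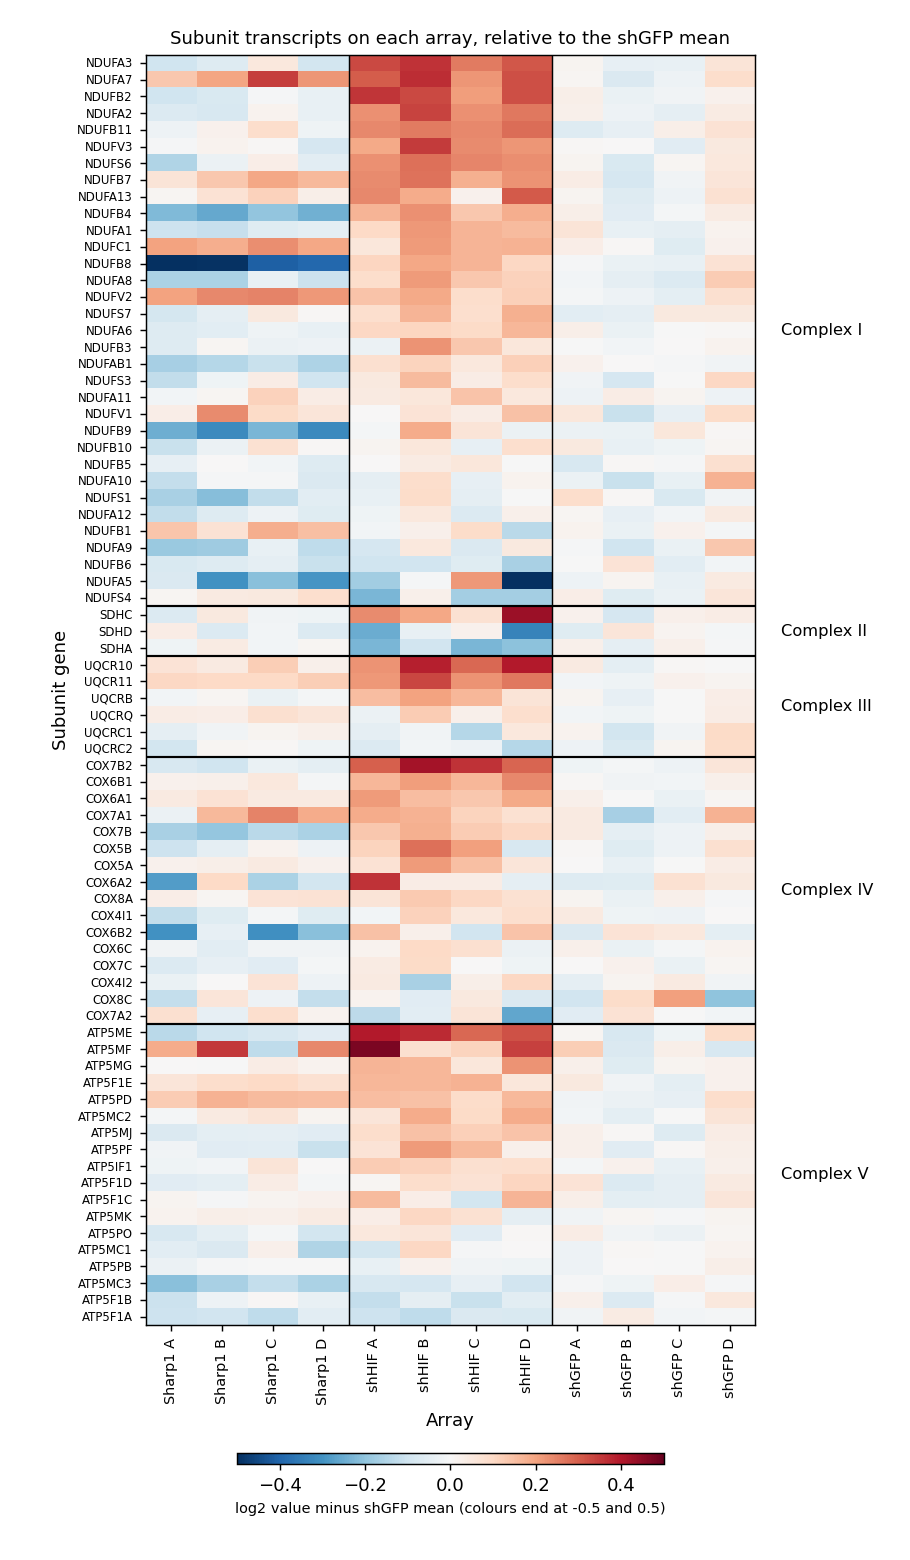
Log2 signal of each of the 76 subunit genes (rows, grouped by complex and ordered by the shHIF difference) on each of the 12 arrays (columns), minus the gene's mean over the 4 shGFP arrays. Red is higher and blue lower, and colours end at 0.5 either way. Most complex I rows are red on the 4 shHIF arrays, while NDUFB8, NDUFB4 and NDUFB9 are blue on all 4 Sharp1 arrays.

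In HIF-depleted cells most subunit transcripts that changed were higher, by small amounts. Of the 76 genes, 36 rose and 5 fell (limma, adjusted p under 0.05 over all genes), with differences from -0.19 to 0.34 on the log2 scale, so that the largest rise on a gene's brightest probe set was 1.27-fold. Among other member sets with a mean of at least 10, 1 of ATP5MJ (mean 10.65) rose more, by 0.57. The called share was 53.9%, against 30.8% of all 19775 genes. Members called higher were 47.4%, against 17.6% of all genes, and members called lower 6.58%, against 13.2%. Because brighter genes were called more often, the 2941 genes with a mean of at least 10 are the closer background: 29.4% of them were higher and 26.0% lower, against 51.5% and 7.35% of the 68 members this bright. In either direction 55.4% of these genes and 58.8% of these members were called. The median member difference was 0.10, against 0.05 over all genes and 0.01 over the bright ones. The median over members, relative to the shGFP mean, was 0.07, 0.13, 0.08 and 0.09 on shHIF arrays A to D and between -0.03 and 0.03 on the shGFP arrays, so the groups did not overlap. Gene by gene, the 4 arrays of each group did not overlap for 33 members higher and 4 lower in shHIF cells, against 28.6% of all genes (16.3% higher, 12.3% lower).

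Higher members outnumbered lower ones in complexes I, III, IV and V, and not in complex II. Complex I had 18 genes higher and 2 lower of 33 (median 0.12), complex III 3 and 0 of 6 (0.10), complex IV 6 and 0 of 16, complex V 8 and 1 of 18 (0.08), and complex II 1 and 2 of 3. Over all genes 17.6% were higher and 13.2% lower, and over the bright genes 29.4% and 26.0%. Spike-in signal was lower on shHIF arrays A and D (9.99 and 10.02) than on the other 10 (10.4 to 10.6), and the actin 3' to 5' difference, a sign of RNA quality, was 0.94, 0.90 and 0.91 on shHIF arrays A to C, 0.62 on D, and 0.59 to 0.74 on the shGFP arrays (0.56 to 0.85 on the Sharp1 arrays). Without shHIF arrays A and D, 37 members were higher and 2 lower. Keeping A and D but not B and C, 31 were higher and 8 lower. With the actin difference as a covariate, 30 were higher and 6 lower. Over all genes the fit with all arrays called 3482 higher and 2613 lower. These settings gave, in the same order, 3061 and 1999, 3511 and 2928, and 3234 and 2580.

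**Figure D2:**
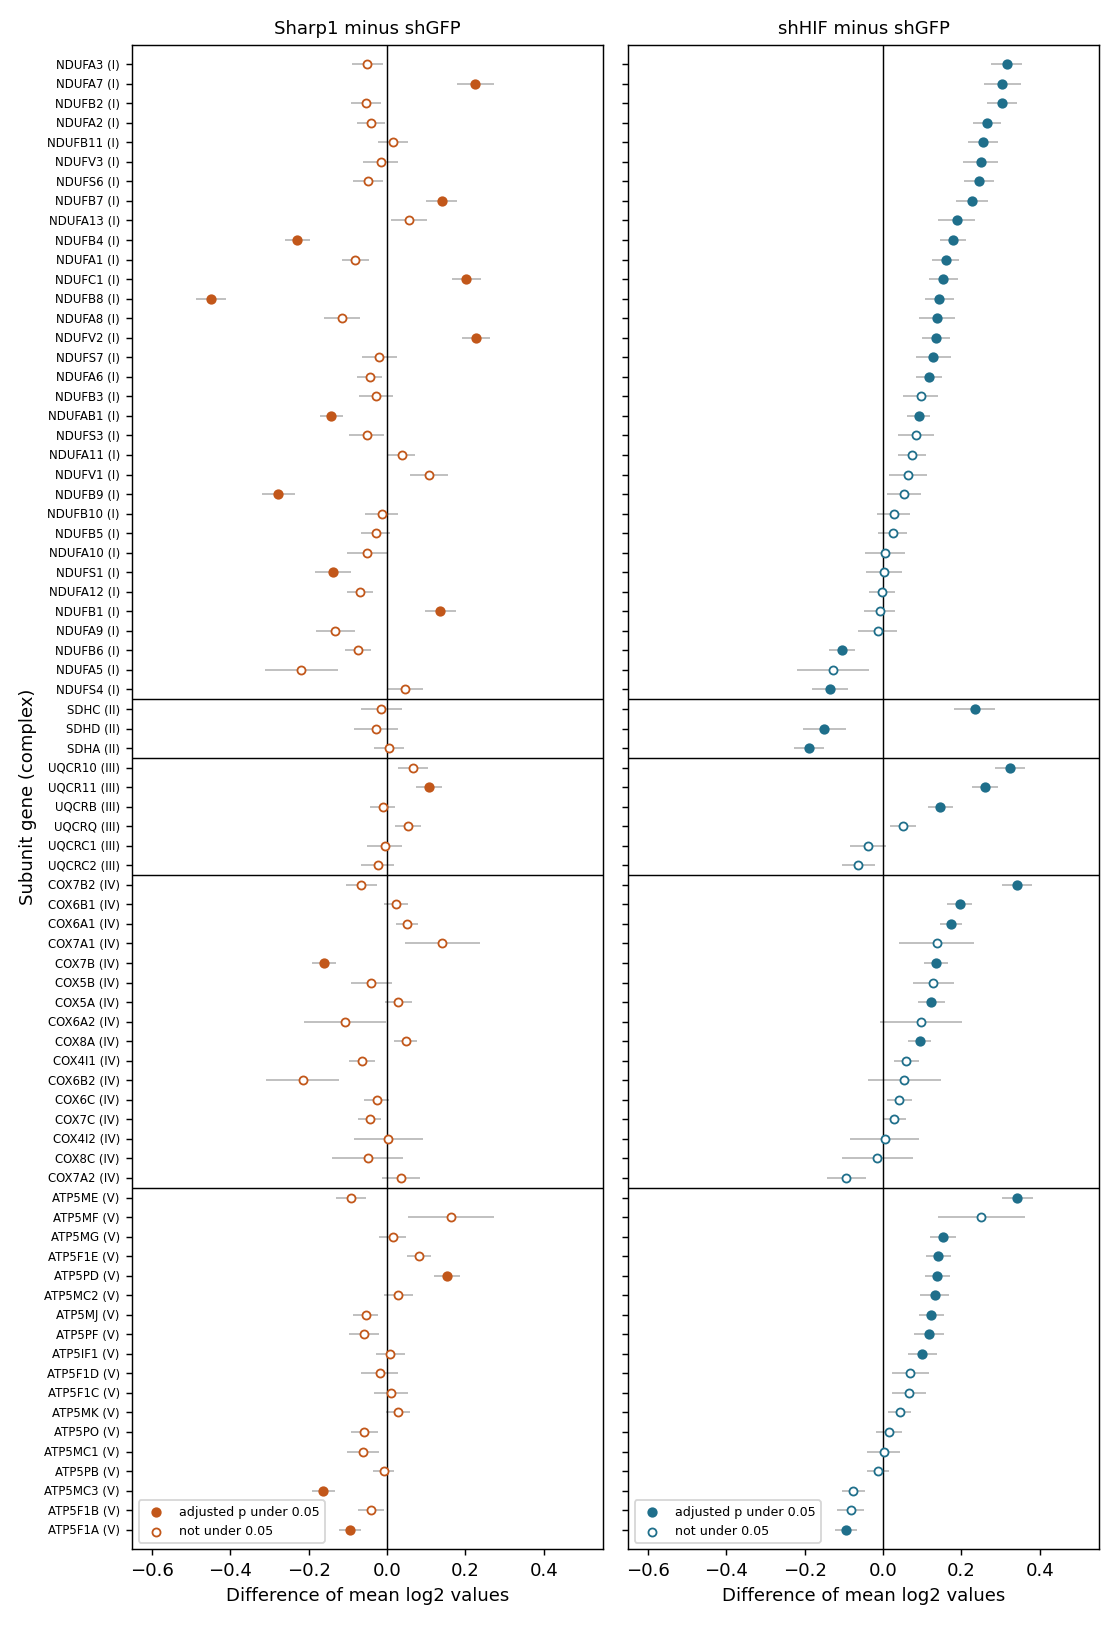
Difference of mean log2 signal for each subunit gene, Sharp1 minus shGFP on the left and shHIF minus shGFP on the right (points, with SE as grey bars), by complex. Filled points have a limma adjusted p under 0.05. On the right 36 filled points lie above 0 and 5 below, and on the left 7 lie above and 8 below.

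Complex I is built of core subunits, some of which carry the flavin and the iron-sulphur clusters, and accessory subunits around them. The accessory genes supplied 16 of the 18 rises in shHIF cells (of 28 measured), and the core genes 2 of 5, NDUFS7 and NDUFV2. NDUFA3, a small membrane subunit, read 11.72, 11.75, 11.64 and 11.70 in shHIF cells, against 11.40, 11.34, 11.35 and 11.45 in shGFP cells. Every shHIF array was above every shGFP array, and the difference was 0.32 (SE 0.04, adjusted p = 7.91e-07). NDUFB2 read 11.84, 11.82, 11.69 and 11.81 in shHIF cells, against 11.52, 11.45, 11.47 and 11.51 in shGFP cells, again without overlap (0.30, adjusted p = 6e-07). Its second bright probe set rose by 0.21. NDUFB11, an X-linked membrane subunit, rose by 0.25 and NDUFS6, an accessory subunit that lies by the iron-sulphur arm, by 0.24. Both kept their calls in all alternatives run, 25 for NDUFB11 and 26 for NDUFS6. NDUFB11 was read only by a set marked as matching several transcripts, so the setting without such sets could not be run for it. NDUFA7 (0.30) and NDUFA2 (0.26) rose on their bright probe sets but read -0.02 and -0.04 on probe sets with means of 5.65 and 5.48. The bright set of NDUFV3 rose by 0.25 while its dimmer set (mean 7.56) fell by 0.34.

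The 2 complex I genes that fell in shHIF cells were accessory ones. NDUFS4, needed for a stable complex in people and mice, differed by -0.13 (SE 0.05, adjusted p = 0.027), and its arrays were 10.98, 11.23, 11.04 and 11.03 in shHIF cells, against 11.24, 11.14, 11.17 and 11.27 in shGFP cells. NDUFB6 differed by -0.11. The groups of NDUFS4 overlapped through shHIF array B. The call of NDUFS4 was lost without any 1 of shHIF A, C or D or of shGFP A or D (differences -0.12 to -0.10), and that of NDUFB6 without shHIF D (-0.09) or without shGFP B (-0.08).

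Complex II split. SDHA, the flavoprotein that oxidises succinate, read 10.78, 10.91, 10.78 and 10.80 in shHIF cells, against 11.03, 10.96, 11.03 and 11.00 in shGFP cells. All shHIF arrays lay below all shGFP arrays, and the fall was 0.88-fold (log2 -0.19, SE 0.04, adjusted p = 0.00041), held in all alternatives run. Its probe set is of the kind that can bind near-identical copies, and SDHA is known to have such pseudogenes. No other set names SDHA alone, so the setting without such sets could not be run for it. SDHC, a membrane anchor, rose by 0.23 (adjusted p = 0.00105) on its brightest set, with 11.31, 11.27, 11.15 and 11.50 in shHIF cells, against 11.09, 10.99, 11.10 and 11.11 in shGFP cells. Its probe sets disagreed: the 4 with means above 10 differed by 0.13 to 0.31, while 2 dimmer sets (means 7.17 and 6.58) fell by 0.86 and 0.70. SDHD, the other anchor, differed by -0.15 (adjusted p = 0.0446) and was low on shHIF arrays A and D only (11.28 and 11.19, against 11.49 and 11.55 on B and C and 11.46 to 11.59 in shGFP cells). Its call was lost in 13 of 26 alternatives, among them leaving out any 1 of shHIF A or D, shGFP B, C or D, or Sharp1 C or D (-0.15 to -0.09).

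Of the complex III genes read, 3 of the 4 small subunits rose and 0 of the 2 core proteins. UQCR10 read 12.65, 12.81, 12.71 and 12.82 in shHIF cells, against 12.47, 12.37, 12.43 and 12.42 in shGFP cells, which is 1.25-fold (log2 0.32, SE 0.04, adjusted p = 2.74e-07). Its second probe set (mean 8.09) rose by 0.59. UQCR11 rose by 0.26 and UQCRB, which binds near the quinone site, by 0.15. UQCRQ (0.05) and the core proteins UQCRC1 (-0.04) and UQCRC2 (-0.06) did not pass the test. The 2 cytochrome c genes outside the symbol rule did not follow: CYC1, the cytochrome c1 of complex III, differed by 0.05 (not called), and CYCS, the carrier to complex IV, fell by 0.14.

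Complex IV rises were COX7B2, COX6B1, COX6A1, COX7B, COX5A and COX8A, and none fell. COX5B, a subunit of the matrix side, differed by 0.13 on its brightest set and was not called. Another 2 sets with means of 11.92 and 11.84 rose by 0.34 and 0.29 (adjusted p = 3.42e-06 and 0.000172 over all probe sets). Both of these COX5B sets are of the kind that can bind near-identical copies. COX7B2 read 11.16, 11.28, 11.22 and 11.15 in shHIF cells, against 10.84, 10.85, 10.84 and 10.92 in shGFP cells. The 2 groups were wholly apart, at 1.27-fold (log2 0.34, SE 0.04, adjusted p = 1.67e-07). COX6B1, which faces the cytochrome c side, rose by 0.20 and COX6A1 by 0.17. The call of COX8A (0.09) was lost without shGFP B (0.08). The isoform pair known to switch under hypoxia gave no call on the brightest sets: COX4I1 differed by 0.06 (adjusted p = 0.187) and COX4I2 by 0.00 (SE 0.09), with COX4I2 below the median probe set. A second bright COX4I1 set (mean 12.58) rose by 0.11 (adjusted p = 0.0121 over all probe sets).

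In complex V the membrane subunits led. ATP5ME, the e subunit that helps pair ATP synthase into dimers, read 11.79, 11.76, 11.68 and 11.71 in shHIF cells, against 11.40, 11.31, 11.37 and 11.48 in shGFP cells. Its difference was 0.34 (1.27-fold, SE 0.04, adjusted p = 1.75e-07), and a second probe set gave 0.34 too. Both ATP5ME sets are of the kind that can bind near-identical copies, and no other set read this gene. ATP5MG and ATP5MJ rose by 0.15 and 0.12. The ATP5MG sets that rose are all of the kind that can bind near-identical copies. Its remaining set (mean 10.41) differed by 0.04 (adjusted p = 0.599 over all probe sets) and was not called. The second ATP5MJ set (mean 10.65) rose by 0.57 (adjusted p = 5.49e-09 over all probe sets), so the 2 sets differ widely in size. By contrast, ATP5MK (0.04) and the dim ATP5MF (0.25, adjusted p = 0.0918) did not pass. Of the 5 genes of the catalytic F1 head, ATP5F1E rose by 0.14 and ATP5F1A, the alpha subunit, fell by 0.09 with a call that was lost without shGFP B (-0.08). Of the peripheral stalk genes, ATP5PD and ATP5PF rose, and of the 3 c ring genes ATP5MC2 did. ATP5IF1, which blocks ATP hydrolysis by the synthase, differed by 0.10 (adjusted p = 0.0368), a call lost in 13 of 26 alternatives, among them leaving out shHIF A or B or shGFP A, B or C (0.09 to 0.11). Its dimmer set with a mean of 8.61 rose by 0.54 in shHIF cells and by 0.23 in Sharp1 cells, while the set with a mean of 9.81 differed by 0.04 and 0.02.

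**Figure D3:**
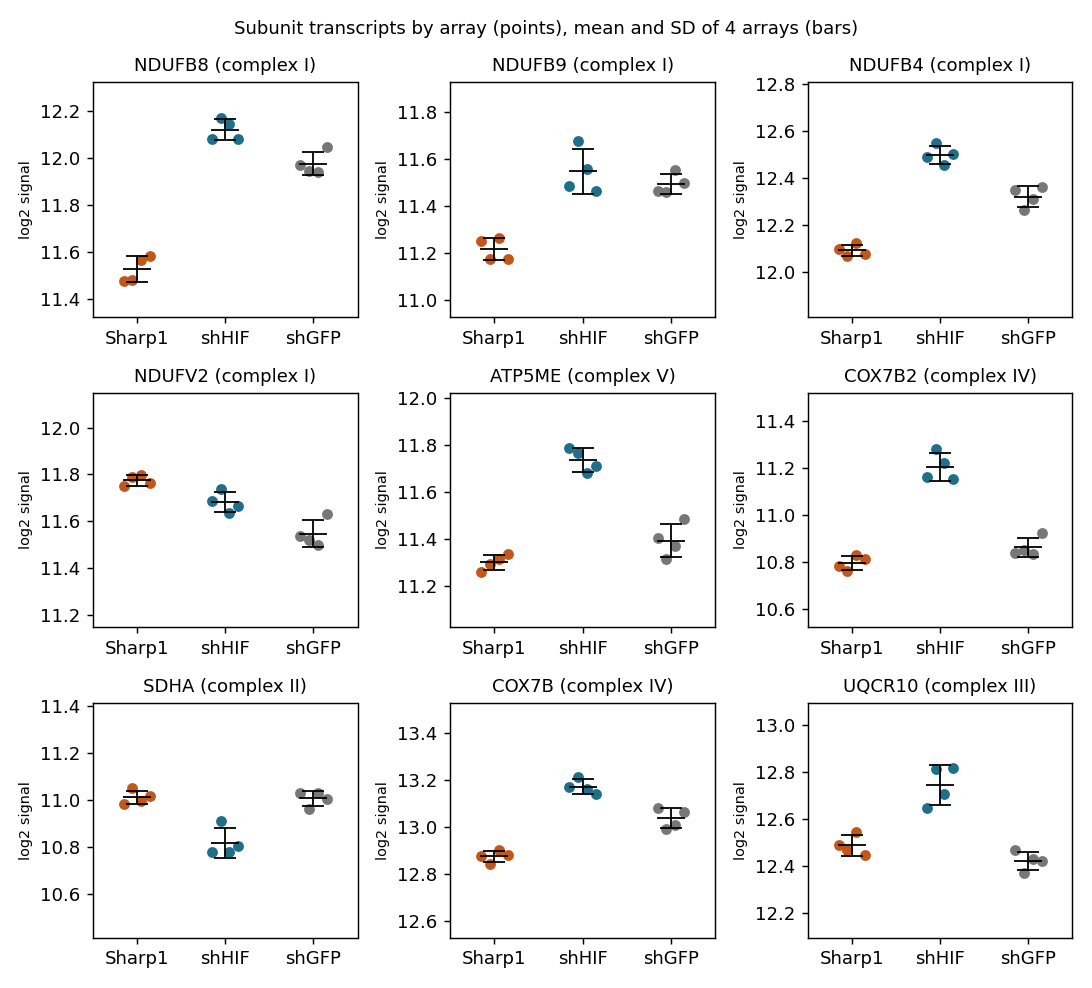
Log2 signal of 9 subunit genes on each array (points) with the mean and SD of 4 arrays (black bars), for Sharp1, shHIF and shGFP cells. Each panel spans 1 log2 unit. ATP5ME, COX7B2 and UQCR10 are highest in shHIF cells, NDUFB8, NDUFB9, NDUFB4 and COX7B lowest in Sharp1 cells, SDHA lowest in shHIF cells and NDUFV2 highest in Sharp1 cells.

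Sharp1 overexpression moved few subunit transcripts, and in both directions. Of the 76 genes, 7 rose and 8 fell, which is 19.7% called, against 27.2% of all genes and 48.8% of genes with a mean of at least 10 (26.4% higher, 22.3% lower). The arrays did not overlap for 10 members higher and 10 lower, against 28.9% of all genes (16.1% higher, 12.8% lower). Members called higher were 9.21%, against 15.3% of all genes, and lower 10.5%, against 11.8%. With each array centred on its median the split was 8 higher and 6 lower. Over all genes that setting gave 3221 higher and 1975 lower, against 3027 and 2343 as deposited. The median member difference was -0.03, against 0.00 over all genes, and array medians relative to the shGFP mean ran from -0.06 to 0.01 in Sharp1 cells and from -0.03 to 0.03 in shGFP cells, which overlap. Of the 15 calls, 10 lay in complex I (5 higher, 5 lower of 33), 3 in complex V, 1 each in complexes III and IV and 0 in complex II.

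The largest change was in NDUFB8, an accessory subunit of the distal membrane arm whose protein is widely used as a marker of assembled complex I. It read 11.47, 11.48, 11.57 and 11.59 in Sharp1 cells, against 11.97, 11.94, 11.94 and 12.05 in shGFP cells. All Sharp1 arrays lay below all shGFP arrays, and the signal was 0.73-fold (log2 -0.45, SE 0.04, adjusted p = 5.41e-10). Its 3 probe sets, of which 1 is dim (mean 6.74), gave -0.45, -0.47 and -0.41. In shHIF cells the dim set was lower (-0.26) where the bright sets were higher. NDUFB9, of the same arm, read 11.25, 11.18, 11.27 and 11.18 in Sharp1 cells, against 11.46, 11.46, 11.55 and 11.50 in shGFP cells (-0.28, SE 0.04, adjusted p = 1.44e-05). NDUFB4 read 12.10, 12.07, 12.12 and 12.08 in Sharp1 cells, against 12.35, 12.26, 12.31 and 12.36 in shGFP cells (-0.23, SE 0.03, adjusted p = 4.59e-06). These 3 are neighbours in name and in the distal membrane arm, yet of the 11 NDUFB genes measured 3 fell, 2 rose and 6 were not called.

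Smaller falls were found in COX7B of complex IV, ATP5MC3 of the c ring, and NDUFAB1, the mitochondrial acyl carrier protein that is also a complex I subunit. COX7B read 12.88, 12.84, 12.90 and 12.88 in Sharp1 cells, against 13.08, 12.99, 13.01 and 13.07 in shGFP cells (-0.16, SE 0.03, adjusted p = 0.00016). A dim second COX7B set (mean 6.60) rose by 0.70. ATP5MC3 fell by 0.16 and NDUFAB1 by 0.14. NDUFS1 and ATP5F1A were also called lower, NDUFS1 (-0.14) with a call lost without shGFP A or B or Sharp1 A or B (-0.14 to -0.11), and ATP5F1A (-0.10) without shGFP B (-0.08).

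Among the rises on brightest sets NDUFV2, a core iron-sulphur subunit of the NADH-binding module, led. It read 11.75, 11.79, 11.80 and 11.76 in Sharp1 cells, against 11.54, 11.52, 11.50 and 11.63 in shGFP cells, without overlap (0.23, SE 0.04, adjusted p = 1.92e-05). The antisense transcript NDUFV2-AS1 was higher as well (mean difference 0.43, adjusted p = 0.00307, with arrays at 5.87 to 6.09 in Sharp1 cells and 5.34 to 5.76 in shGFP cells), and whether the probe sets share signal was not tested. NDUFA7 rose by 0.22, NDUFC1 by 0.20 and ATP5PD of the peripheral stalk by 0.15. ATP5MG differed by 0.01 on its brightest set and was not called, but another of its 4 sets (mean 10.41) rose by 0.36 (adjusted p = 3.87e-06 over all probe sets). NDUFB7 (0.14) and NDUFB1 (0.14) followed, with the NDUFB7 call lost without shGFP B (0.11), and UQCR11 (0.11) lost its call without shGFP A, shGFP B or Sharp1 D (0.10 each). SDHA, SDHC and SDHD differed by 0.00, -0.02 and -0.03 and were not called.

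Set side by side, the comparisons against the shared shGFP arrays placed 4 members lower in Sharp1 and higher in shHIF cells: NDUFB8 (-0.45 and 0.14), NDUFB4 (-0.23 and 0.18), COX7B (-0.16 and 0.14) and NDUFAB1 (-0.14 and 0.09). The shHIF call of NDUFB8 was lost with the actin covariate and when shHIF B and C were left out (0.11 in both settings), and with the mean of its probe sets, which gave 0.0035. Higher in both were NDUFV2, NDUFA7, NDUFC1, NDUFB7, ATP5PD and UQCR11, and lower in both was ATP5F1A. Another 31 members were called in neither. The Sharp1 calls of NDUFB7, UQCR11 and ATP5F1A were lost without shGFP B. Shared calls were not counted over all genes, and an error in the shGFP means would move both differences alike.

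Sharp1 and shHIF cells were also compared directly, without the shGFP means. Of the 76 members 37 were lower and 5 higher in Sharp1 cells, 55.3% called, against 38.4% of all genes and 65.8% of the genes with a mean of at least 10. Lower members were 48.7%, against 20.4% of all genes. Of the 68 bright members 51.5% were lower, against 33.2% of the bright genes. The arrays did not overlap for 31 members lower and 2 higher, against 35.4% of all genes (18.8% lower, 16.5% higher). Without shHIF A and D, 38 were lower and 1 higher. Over all genes that setting gave 3493 lower and 2980 higher, against 4031 and 3557 with all arrays. The median member difference with all arrays was -0.09, against -0.06 over all genes and -0.01 over the bright ones. NDUFB8 was furthest apart at 0.66-fold (log2 -0.59, SE 0.04, adjusted p = 1.96e-12), with 11.47 to 11.59 in Sharp1 cells and 12.08 to 12.17 in shHIF cells. ATP5ME differed by -0.44, NDUFB4 by -0.41, COX7B2 by -0.41, NDUFA3 by -0.37, NDUFB2 by -0.36 and NDUFB9 by -0.33. SDHA was higher in Sharp1 cells, at 10.98 to 11.05 against 10.78 to 10.91 in shHIF cells (0.19, SE 0.04, adjusted p = 0.000213). NDUFS4 was 0.18 higher and NDUFB1 0.14 higher, both calls lost without shHIF A and D.

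Related mitochondrial lists were counted in the same fits, to be read against all genes (15.3% higher and 11.8% lower in Sharp1 cells, 17.6% and 13.2% in shHIF cells) and bright genes (26.4% and 22.3%, 29.4% and 26.0%). Assembly factors of the 5 complexes had 10 higher and 13 lower of 54 in Sharp1 cells (42.6% called) and 27 higher and 6 lower in shHIF cells (61.1% called). TMEM70, an assembly factor of ATP synthase, fell by 0.80 in Sharp1 cells, and PET117 of complex IV by 0.57, while BCS1L, which inserts the iron-sulphur protein of complex III, rose by 0.33. In shHIF cells FMC1, of ATP synthase assembly, rose by 0.59 and COX14 of complex IV by 0.45, whereas SDHAF4 of complex II fell by 0.71 and LYRM7 of complex III by 0.68. Proteins of the mitochondrial ribosome had 12 higher and 12 lower of 75 in Sharp1 cells (32.0% called, against 27.2% of all genes and 48.8% of bright genes) and 36 higher and 11 lower in shHIF cells (62.7% called, against 30.8% and 55.4%), with MRPS21 at 0.46 and MRPS16 at -0.77 in shHIF cells. The tricarboxylic acid cycle had 0 higher and 1 lower of 11 in Sharp1 cells and 0 higher and 5 lower in shHIF cells, and DLD fell in both (-0.41 and -0.36). Of 20 genes of mitochondrial gene expression and biogenesis, 0 rose and 6 fell in Sharp1 cells, among them TFAM (-0.30), which packages mitochondrial DNA, and 4 rose and 4 fell in shHIF cells.

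**Figure D4:**
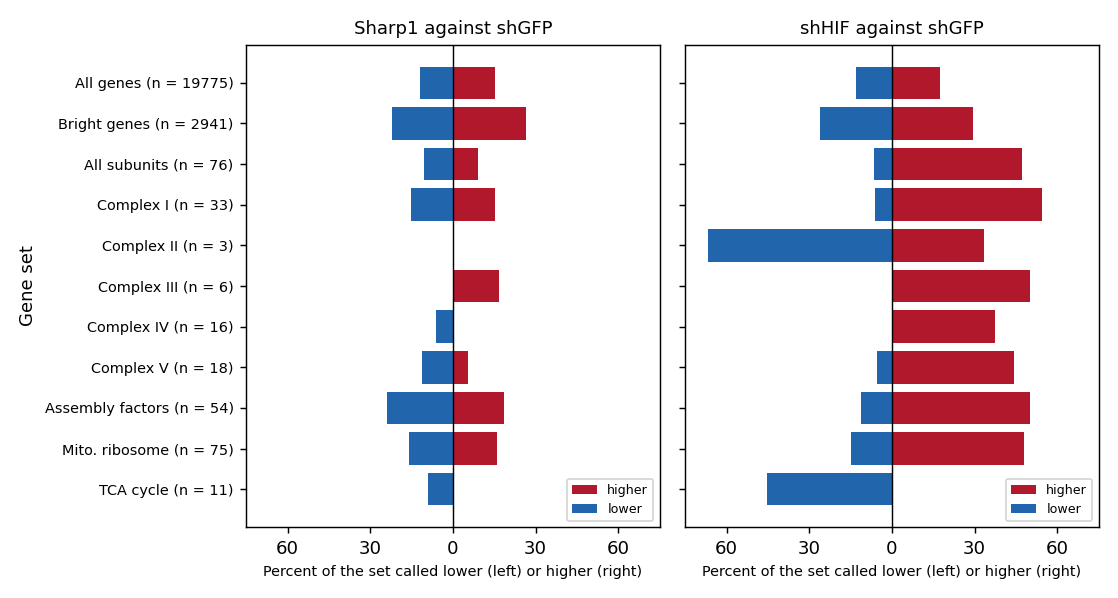
Percent of each gene set called higher (red, to the right) or lower (blue, to the left) at a limma adjusted p under 0.05, for Sharp1 against shGFP and shHIF against shGFP. Bright genes are those with a mean log2 signal of at least 10. In the right panel 47.4% of all subunits are higher, against 29.4% of bright genes, and in the left panel 9.21% are higher, against 26.4%.

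Among 10 genes that link HIF activity to mitochondria, 0 were higher and 7 lower in Sharp1 cells and 2 higher and 4 lower in shHIF cells. Over all genes 15.3% were higher and 11.8% lower in Sharp1 cells, and 17.6% and 13.2% in shHIF cells. BNIP3, a mitophagy receptor, fell by 1.75 in Sharp1 cells and by 0.58 in shHIF cells, and PDK1, which shuts pyruvate dehydrogenase, fell by 0.21 and by 0.63. MXI1, a MYC antagonist, fell by 1.86 in Sharp1 cells and rose by 0.26 in shHIF cells.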

How the data were processed

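The deposited values are log2 expression values that the submitters made with RMA, per the submitters' processing notes, which corrects background, normalizes between arrays and summarises each probe set. Which version of RMA they ran was not given in the sources used here. Scan dates and detection calls were not used. Precision is limited by having 4 arrays per group and, for dim genes, by background.

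Gene names came from GEO's platform table: 41097 probe sets had 1 symbol, 1801 several and 11777 none. Where a gene had several probe sets, the one brightest on average was read. In R 4.3.3 with limma 3.58.1, a mean per group was fitted to all 12 arrays, contrasts were tested after eBayes with trend, and Benjamini-Hochberg adjustment ran over 19775 genes, with calls at 0.05. Differences are of mean log2 values, and the fit was tested on simulated data. The members, lists and tests were chosen with earlier results of these data known, and the threshold of 10 for bright genes after levels were seen.

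The members named are, per comparison, up to 12 called rises and 12 called falls with the largest difference, the largest per complex, the SDH genes, the COX4 and NDUFA4 pairs, ATP5IF1, and members whose probe sets disagree. A few more are named to complete a complex, and COX5B, COXFA4L3, the mitochondrial DNA genes and NDUFV2-AS1 were chosen after their values were seen. Alternatives changed the probe set per gene, the rows adjusted over, the normalization, the filter on dim genes, the arrays fitted, the variance model, array quality and single arrays.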

Additional observations from a re-analysis of the deposited data

Results flagged for a closer look

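In 129 groups of 4 arrays (each named member, and the medians of the members and of each complex, in each group) the highest or lowest array was checked for a gap to the others of more than 0.829 of the group's range, which chance gives in about 1 of 20 groups. The check picked 4. Array B of the shGFP cells stood apart 3 times: ATP5F1A read 13.74 there, against 13.68 to 13.69 on the other shGFP arrays, ATP5MG 13.18, against 13.26 to 13.27, and SDHC 10.99, against 11.09 to 11.11. Without that array the shHIF comparison called 34 members, against 41 with it. Over all genes it called 5142 without that array, against 6095 with it. The complex II median relative to the shGFP mean was 0.0429 on Sharp1 array B, against -0.0225 to -0.0153 on the other Sharp1 arrays.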

How the results depend on the processing

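The number of members called in either direction stayed within 1.5 times in each comparison and alternative run, but counts by direction moved more. In shHIF against shGFP, 5 lower became 2 without shHIF A and D, 8 with only these and 1 without the eBayes trend. The 5 became 3 without any 1 of shGFP B, shGFP D, shHIF A or shHIF D. Over all genes, 2613 lower became 1999, 2928 and 2317 in the former settings and 2283 to 2419 in the latter. In Sharp1 against shHIF, 5 higher became 1 without shHIF A and D. The 5 became 3 without any 1 of shGFP C, shHIF A, shHIF D, Sharp1 A, Sharp1 C or Sharp1 D. Over all genes, 3557 higher became 2980 in the former setting and 3268 to 3523 in the latter. Leaving out single arrays gave 13 to 18 called members in Sharp1 against shGFP and 34 to 43 in shHIF against shGFP. Sharp1 against shHIF gave 32 to 44. Over all genes the same runs called 4770 to 5644, 5142 to 6402 and 6849 to 7851. Median member differences were, in the same order, -0.036 to -0.0037, 0.083 to 0.112 and -0.109 to -0.084. With each array centred on its median, the median member log2 difference, Sharp1 against shHIF, was -0.05985, against -0.0919 as deposited. The median over all genes moved as well, to -0.0275, against -0.0596 as deposited. No label says that the replicate letters pair the arrays. Same-letter correlations of deviations were -0.18 to 0.14 and different-letter ones -0.20 to 0.23. Whether arrays of different letters share a batch was not tested. The replicate block gave 15, 40 and 40 called members, and 5186, 5897 and 7373 calls over all genes. Differences called before or after the change turned direction when other probe sets were read. Some uncalled ones turned in other settings, as SDHD in Sharp1 against shHIF did without shHIF A and D (-0.0199, against 0.12). With the mean of a gene's probe sets, Sharp1 against shGFP turned to 0.27 for COX7B, shHIF against shGFP to 0.0322 for ATP5F1A, -0.0452 for NDUFV3 and -0.10 for SDHC, and Sharp1 against shHIF to 0.0059 for ATP5MC3, 0.0123 for COX4I1, 0.32 for COX7B, 0.13 for NDUFV3, 0.21 for SDHC and 0.10 for UQCRB. Without the sets marked as matching several transcripts, Sharp1 against shGFP turned to 0.24 for COX4I1, 0.0654 for NDUFS1 and -0.0104 for UQCR11, shHIF against shGFP to 0.16 for ATP5F1A, -0.0413 for NDUFA2, -0.34 for NDUFV3 and -0.86 for SDHC, and Sharp1 against shHIF to 0.32 for ATP5MG, 0.18 for COX4I1, 0.52 for NDUFV3 and 0.95 for SDHC. Which set reads the coding transcript was not tested. That setting also ended the Sharp1 calls of NDUFB4 (-0.05), ATP5PD (0.11), NDUFB1 (0.15), NDUFB7 (0.15) and ATP5F1A (-0.09). The sets read there were dim, with means in the same order of 4.55, 6.51, 5.94, 5.86 and 5.26, near the median probe set of 5.41. A call lost on such a set says little about the bright set.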

Other observations

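The respiratory chain also has subunits encoded by mitochondrial DNA, and 7 of these genes had a probe set with a single symbol. ND6, a complex I subunit and the one protein gene on the light strand, read 11.70, 11.88, 11.67 and 11.78 in Sharp1 cells, against 10.23, 10.15, 10.16 and 10.15 in shGFP cells, a difference of 1.59 (SE 0.05, limma adjusted p = 1.02e-18). In shHIF cells it read 9.85, 9.86, 9.89 and 9.75, lower than in shGFP cells by 0.34 (adjusted p = 2.69e-06). ND2 was 0.45 higher in Sharp1 cells and COX1 0.22 higher. ND4, COX2, COX3 and ATP6 differed by at most 0.05 either way in Sharp1 cells and were not called. In shHIF cells ND4 was 0.08 higher, and ND2, COX1, COX2, COX3 and ATP6 were not called. The highest value on any array was 14.8.

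The relatives of NDUFA4, a complex IV subunit filed under COXFA4, gave different values. COXFA4L3, given because of its size, read 7.14, 7.54, 7.42 and 7.14 in shHIF cells, against 5.90, 6.18, 5.94 and 6.01 in shGFP cells (1.30, SE 0.10, adjusted p = 1.11e-10), and was 0.31 lower in Sharp1 cells. COXFA4 itself was 0.14 lower in Sharp1 cells and differed by 0.01 in shHIF cells. COXFA4L2, known as a HIF target, had a mean signal of 5.53 and was called in neither comparison. COX7A2L was 0.24 higher in shHIF cells.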
